A study of Mus musculus with 2 samples.

Results

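The regions described here were open chromatin regions of mouse urinary bladder with a strong DNase-seq signal in both libraries but without a called footprint in either. DNase-seq maps accessible chromatin by sequencing the places where the enzyme DNase I cuts. Peaks of the libraries were merged where they overlapped, and merged regions that held a peak of each library are called shared. An autosomal shared region was called strong when its highest peak signal exceeded the median of all shared regions in each library, 1.28 in replicate 1 and 0.975 in replicate 2, in the units of the deposited signal. Of 32021 strong autosomal shared regions, 275 overlapped no footprint, which is 0.859% of them. Over all 71323 autosomal shared regions the number without a footprint was 2590, or 3.63%. The 275 regions were thus selected on measured values, the signals and the footprints, and both are given only as a description.

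Urinary bladders of male B6CASTF1/J mice, an F1 hybrid strain, were taken at 14 days of age. The labels give 1 male for replicate 1 and 3 males for replicate 2, which was thus a pool of animals, and the same donor label for both. No treatment or second condition is part of the series, so all values describe 1 group of 2 libraries and no test between conditions exists. The annotated tissue mixes urothelium, smooth muscle, stroma and other cells, and a signal cannot be assigned to a cell type. Replicate 1 had 139821 peaks and 331596 footprints, and replicate 2 had 82225 peaks and 200630 footprints.

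A footprint is a short stretch of low cutting inside an open region, usually read as protection of the DNA by a bound protein. Not every bound factor leaves one, since some leave DNA quickly and the enzyme has its own sequence preference. Many mammalian promoters lie in CpG islands, GC-rich stretches that keep most of their CpG dinucleotides. In them, initiation is often spread over many positions, and factors of the SP/KLF, NFY, ETS and NRF1 families are known to bind near the transcription start site (TSS).

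To show what a missing footprint means here, 3 pairs of windows of 200 bp follow, each a region without a footprint and the strongest footprint-bearing region within 1 kb of it. They are the strongest promoter members whose 2 windows touched no annotated UTR. Capitals mark bases inside a footprint of either replicate, so the member windows are in lower case throughout. All windows are centred on the strongest peak of replicate 1 and are on the plus strand of GRCm38.p6, the build mm10. Zfyve21 encodes a protein with a FYVE zinc finger, a lipid-binding domain. Its member window was chr12:111814391-111814590, in an intron, and its neighbour window chr12:111813921-111814120, outside genes. Ska2 encodes a subunit of the spindle and kinetochore-associated complex. Its member window was chr11:87109401-87109600, in an intron, and its neighbour window chr11:87109031-87109230, outside genes. Vamp3 encodes a vesicle SNARE protein. Its member window was chr4:151057471-151057670, in an intron, and its neighbour window chr4:151057961-151058160 touched a non-coding exon.
Zfyve21 member: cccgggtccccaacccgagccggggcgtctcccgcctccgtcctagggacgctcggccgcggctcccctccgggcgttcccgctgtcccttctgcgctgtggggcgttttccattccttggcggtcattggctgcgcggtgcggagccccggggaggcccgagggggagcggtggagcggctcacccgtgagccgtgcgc
Zfyve21 neighbour: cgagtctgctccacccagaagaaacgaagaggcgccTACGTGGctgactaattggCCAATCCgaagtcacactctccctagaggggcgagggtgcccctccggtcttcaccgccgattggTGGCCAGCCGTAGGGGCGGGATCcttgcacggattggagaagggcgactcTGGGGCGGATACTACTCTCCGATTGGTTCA
Ska2 member: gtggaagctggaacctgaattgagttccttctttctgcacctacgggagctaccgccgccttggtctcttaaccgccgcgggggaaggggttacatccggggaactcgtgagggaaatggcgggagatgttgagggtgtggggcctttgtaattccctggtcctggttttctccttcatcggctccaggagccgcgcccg
Ska2 neighbour: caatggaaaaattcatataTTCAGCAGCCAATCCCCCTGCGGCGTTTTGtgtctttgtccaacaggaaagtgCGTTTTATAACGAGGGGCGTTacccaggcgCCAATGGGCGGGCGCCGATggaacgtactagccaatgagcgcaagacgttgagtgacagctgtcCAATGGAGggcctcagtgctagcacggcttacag
Vamp3 member: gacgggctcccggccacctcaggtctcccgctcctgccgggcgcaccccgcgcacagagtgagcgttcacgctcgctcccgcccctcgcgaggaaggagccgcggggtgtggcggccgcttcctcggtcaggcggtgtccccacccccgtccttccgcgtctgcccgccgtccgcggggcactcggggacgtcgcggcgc
Vamp3 neighbour: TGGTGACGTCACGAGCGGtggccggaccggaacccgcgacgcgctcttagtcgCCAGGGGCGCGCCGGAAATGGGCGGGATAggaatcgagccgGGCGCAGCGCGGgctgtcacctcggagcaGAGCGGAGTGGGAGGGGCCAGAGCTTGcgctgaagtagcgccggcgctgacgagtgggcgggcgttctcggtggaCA

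The Zfyve21 member had signals of 2.54 in replicate 1 and 2.27 in replicate 2, against 9.89 and 8.95 in its neighbour, which held 5 and 6 footprints. Its window held 26 CpG dinucleotides at 75.5% GC, and the neighbour window 15 at 61.0%. Both Zfyve21 windows held the letters CCAAT, the core of the NFY site, only on the minus strand in the member and on both strands in the neighbour. In the neighbour some copies lay inside footprints and others outside, and the member had no footprint by the rule. The Ska2 member had signals of 2.43 and 1.98, and its neighbour had 9.07 and 8.70, with 4 and 3 footprints. None of the 8 motifs marked below for single members was in the Ska2 member window, whereas the neighbour window held CCAAT, the GC box and a TATA box. The Vamp3 member had signals of 1.92 and 2.18, and its neighbour had 15.7 and 10.8, with 9 and 7 footprints. In all 3 pairs the neighbour was over 3 times as strong as the member in each replicate.

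Single windows of 4 further members show the kinds of sequence in the set, 1 each. Capitals mark matches to CTCF, NFY, GC box, AP-1, ETS, CRE, NRF1 or TATA motifs, except in the tRNA window, where they mark the tRNA gene. The strongest member with other copies in the genome was at 2610005L07Rik, chr8:20424211-20424410, outside exons. The only member over a tRNA gene lay outside other genes at chr2:122377851-122378050, near Gm24409, over a histidine tRNA gene of 72 bp. The only member with a CTCF motif was at Casc3, which encodes a core protein of the exon junction complex, and its window chr11:98810031-98810230 reached a coding exon. Junb encodes a subunit of the transcription factor AP-1, and its window, chr8:84977541-84977740, overlapped the coding exon. The last 2 were picked after their values were seen.
2610005L07Rik: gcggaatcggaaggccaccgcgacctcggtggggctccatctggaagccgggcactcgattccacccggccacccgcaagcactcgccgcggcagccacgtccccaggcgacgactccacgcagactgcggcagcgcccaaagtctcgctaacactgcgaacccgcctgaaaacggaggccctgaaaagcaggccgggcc
Gm24409: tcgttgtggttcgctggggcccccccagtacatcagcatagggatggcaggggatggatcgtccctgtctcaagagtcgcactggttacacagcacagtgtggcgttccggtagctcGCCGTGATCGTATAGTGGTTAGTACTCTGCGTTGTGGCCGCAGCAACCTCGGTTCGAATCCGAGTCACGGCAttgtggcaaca
Casc3: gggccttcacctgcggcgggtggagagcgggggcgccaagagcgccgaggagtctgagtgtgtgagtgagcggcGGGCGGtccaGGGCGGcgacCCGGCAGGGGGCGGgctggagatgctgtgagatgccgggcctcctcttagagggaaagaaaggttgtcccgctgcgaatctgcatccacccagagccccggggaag
Junb: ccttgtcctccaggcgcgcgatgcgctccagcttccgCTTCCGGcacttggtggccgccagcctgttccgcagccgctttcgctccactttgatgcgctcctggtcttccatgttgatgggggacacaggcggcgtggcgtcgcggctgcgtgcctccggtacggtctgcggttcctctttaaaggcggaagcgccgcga

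Members came from the weak end of the strong regions. Their signals ran from 1.29 to 3.02 with a median of 1.51 in replicate 1, and from 0.991 to 3.35 with a median of 1.40 in replicate 2. Strong regions with a footprint had medians of 2.95 and 2.20. In the weakest decile of strong regions by replicate 1 signal, 149 of 3242 had no footprint, or 4.60%, and above the sixth decile there was none. By replicate 2 signal the share stayed between 1.69% and 2.17% over the weakest 4 deciles and was 0.0624% in the seventh. Just inside the threshold lay regions at Cenpx and Ubtd1, each with 1.29 in replicate 1 and with 1.06 and 1.26 in replicate 2. Just outside lay footprint-free regions at Dhx9, at 1.41 and 0.975, Pdcd4, at 1.28 and 1.10, and Rnf2, at 1.28 and 1.02. All 5 were in promoters.

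**Figure D1:**
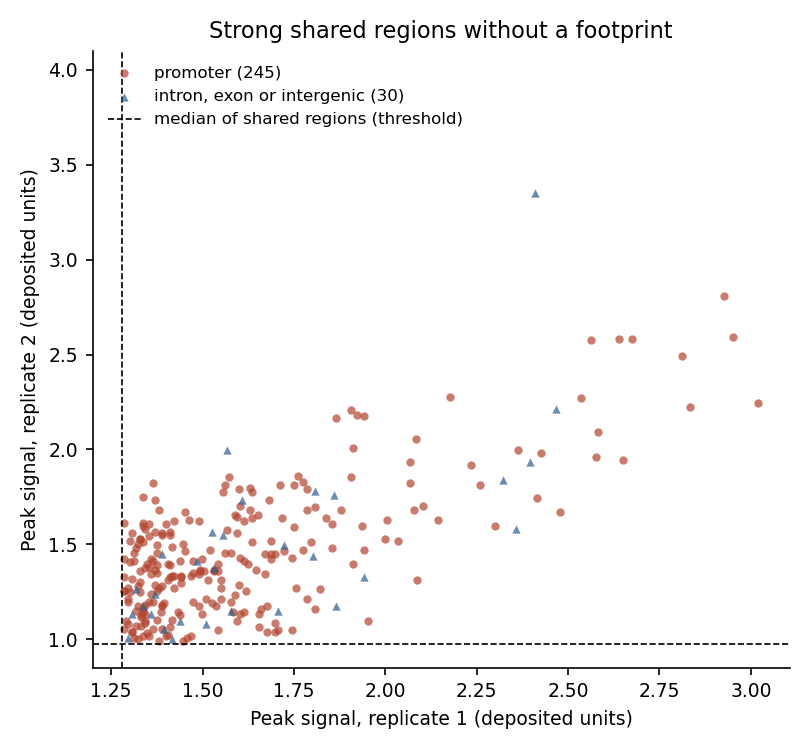
Peak signal of each of the 275 members in replicate 1 (x axis) and replicate 2 (y axis), in deposited units, with dashed lines at the thresholds. Most points sit near the thresholds, and the 30 members outside promoters are scattered among the 245 promoter members.

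Because signal chose the members, each feature below is set beside footprint-bearing regions of like signal. Those with signals up to the members' highest in both replicates numbered 16231. A weighted value gives the footprint-bearing regions the members' distribution over 5 bins of signal in each replicate, and a further one does so over width as well. Mean signals were then 1.62 in members and 1.66 in weighted regions for replicate 1, and 1.46 in both for replicate 2. Intervals are Wilson 95% intervals, which cover counting error only. Regions are not replicates of a condition, so no p-value is given.

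Members were wide. Their median width was 320 bp, from 120 to 960 bp, against 220 bp in footprint-bearing regions weighted to the same signals. Within the members' signal range, regions of up to 200 bp had no footprint in 16 of 7892 cases, or 0.203% (0.125 to 0.329). The share rose over each wider class to 5.81% (4.26 to 7.87), 38 of 654, above 500 bp. Wide regions offered more bases in which a footprint could be called. The widest members were at Pabpc1 and Fzd1, both 960 bp, Ankrd11, 940 bp, Kmt2e, 880 bp, and Sh3glb1, 820 bp. Pabpc1 encodes a poly(A)-binding protein, Fzd1 a Wnt receptor and Kmt2e a protein of a histone methyltransferase family. The Pabpc1 region, chr15:36607861-36608820, had signals of 1.42 and 1.27, and the nearest footprint was 100 bp from its edge. At Fzd1, chr5:4756321-4757280 was the only member centred in an exon outside promoters, with signals of 1.31 and 1.14.

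**Figure D2:**
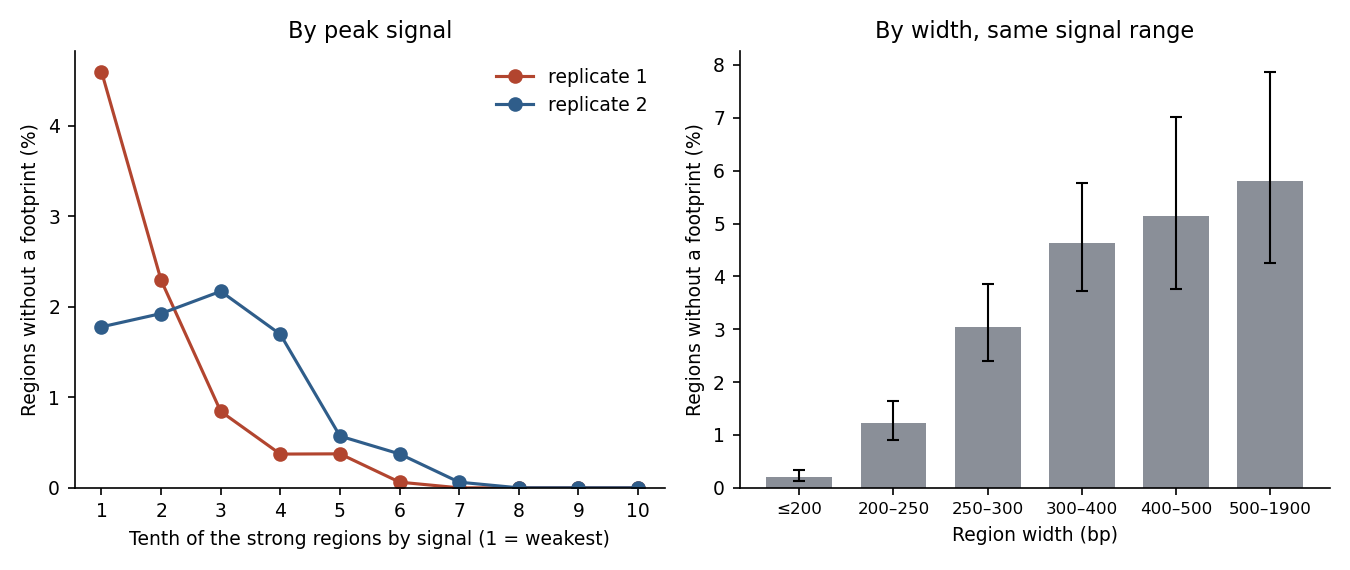
Left, share of strong regions without a footprint (y axis, %) by decile of signal (x axis), for each replicate. Right, the same share by region width in bp within the members' signal range, with Wilson 95% intervals; it runs from 0.203% to 5.81%.

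Most members were promoter regions, centred within 1 kb of an annotated TSS. That was the case for 245 of 275, or 89.1% (84.9 to 92.3), against 51.8% of all strong regions with a footprint, 37.6% of those weighted to the members' signals and 53.4% of those weighted to signals and width. Of the other members, 16 were intronic, 13 intergenic and 1 exonic. The weighted shares of introns and intergenic sequence were 31.6% and 26.0%, against 5.82% and 4.73% among members. The rule was also applied with the signal, threshold and footprints of each replicate alone, here and below. Among the regions shared by both libraries, 516 by replicate 1 and 1601 by replicate 2 then had no footprint. Their promoter shares were 75.6% and 78.3%, a mean of 77.0% ± 1.94 (SD, n = 2), and regions with a footprint weighted to the same replicate's signals gave 30.8% ± 2.19. Both sets come from the same shared regions and contain the 275 members. The SD is therefore not a spread of independent samples, and the difference was not judged against it.

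The number of footprints moved with the promoter share in a curve, not a line. Counting footprints of both replicates, and within the members' signal range, the promoter share was 89.1% with none, 73.3% with 1 and 53.5% with 2. It was lowest, 26.2%, with 5 or 6 footprints and 54.3% with 9 or more. CpG island-like windows followed the same course, from 72.0% with none through 14.4% at 5 or 6 to 41.8% at 9 or more. The CTCF motif ran the other way, at 0.364% with no footprint, 14.2% at 5 or 6 and 6.18% at 9 or more. Both ends of the scale were thus richer in promoters than the middle. Both ends were also wider: the median width was 320 bp with no footprint, 200 bp at 5 or 6 and 320 bp at 9 or more. Width was not matched in this comparison, and its part in the curve was not tested.

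**Figure D3:**
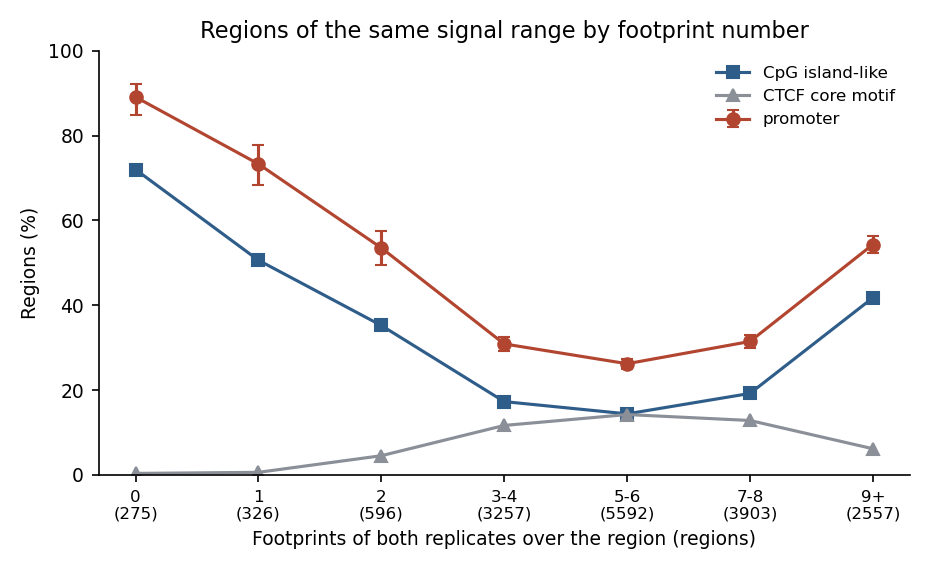
Share of regions (y axis, %) that are promoters, CpG island-like or hold the CTCF core motif, by number of footprints (x axis, with the number of regions), within the members' signal range. Promoter shares carry Wilson 95% intervals; they run from 89.1% through 26.2% to 54.3%.

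Most promoter members lay past the TSS, inside genes. Of the 245, 154 (62.9%) were centred over 100 bp downstream of the nearest TSS, 56 within 100 bp of it and 35 over 100 bp upstream, with a median position of 243 bp downstream. Of 5647 promoter regions with a footprint in the same signal range, 29.5% lay downstream and 46.2% at the TSS, with a median 8 bp upstream. Members from 200 to 600 bp downstream form a separate rise in the plot of positions. The largest 100 bp class, 400 to 500 bp downstream, held 37 members. Among the 154 downstream members, 101 were centred in introns (65.6%) and 28 in coding exons (18.2%), against 55.8% and 12.4% of downstream regions with a footprint. UTRs held 7.14% of them, against 15.4%. Annotated starts of all transcripts were used, so the nearest TSS need not be one used in bladder.

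**Figure D4:**
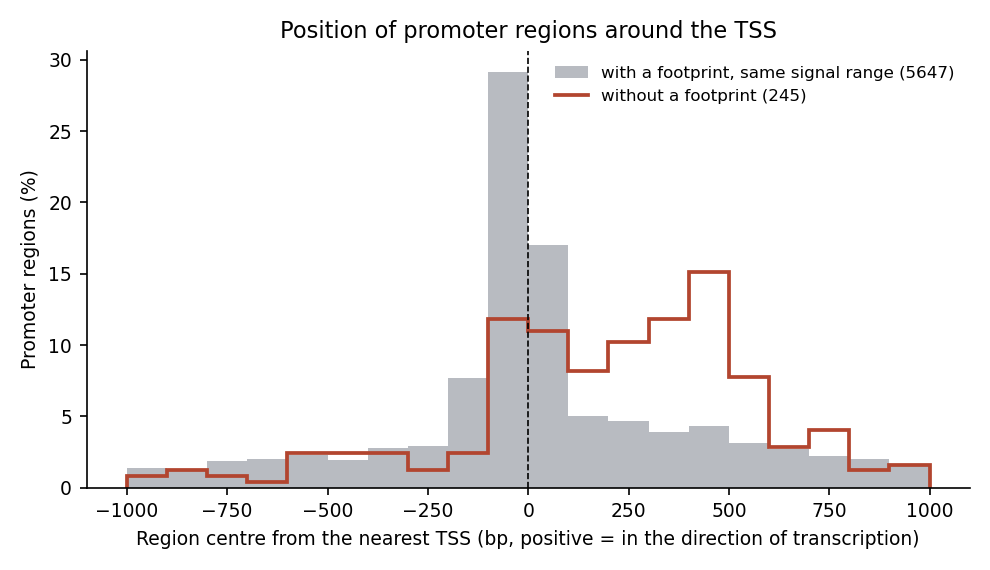
Position of the region centre from the nearest TSS (x axis, bp, positive in the direction of transcription) for the 245 promoter members (line) and the 5647 promoter regions with a footprint in the same signal range (filled), as a percentage of each set per 100 bp. The filled set is highest at the TSS, the members at 400 to 500 bp downstream.

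Nearly all members stood beside a stronger open region. In each replicate, a shared region with a higher signal lay within 1 kb of 261 members, 94.9% (91.6 to 96.9). The share was 21.3% of footprint-bearing regions weighted to the same signals and 32.8% weighted to signals and width. The highest neighbouring signal was taken in each replicate separately, here and for single members below, so it need not be of the same region in both. The median gap to the nearest shared region was 220 bp. In the 265 members with any shared region within 1 kb, the highest such signal had a median of 9.26 in replicate 1 and 8.27 in replicate 2. Its fold over the member had a median of 5.66 (quartiles 4.18 and 8.16) and of 5.50 (4.02 and 7.24). Of 154 downstream promoter members with a neighbour, the strongest neighbour was closer to the TSS in 108, and over all promoter members with a neighbour in 127 of 242. A region with a footprint lay within 1 kb of 264 members, 96.0%, against 39.6% weighted to signals and 53.6% weighted to signals and width. The nearest footprint was a median of 182 bp from a member's edge, from 2 to 2407 bp, and within 200 bp for 152. Neighbour strength uses the signal that the rule also used, and its part in the absence of footprints was not tested.

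Within the same signal range, the share of regions without a footprint differed with the neighbour in promoters and outside them. With a stronger region within 1 kb, 261 of 3008 regions had no footprint, or 8.68% (7.72 to 9.74). Without one, 14 of 13498 had none, or 0.104% (0.0618 to 0.174). Among promoter regions the shares were 11.2%, 241 of 2159, with a stronger neighbour and 0.107%, 4 of 3733, without. Outside promoters they were 2.36%, 20 of 849, and 0.102%, 10 of 9765. Among CpG island-like regions, 198 of 1426 with a stronger neighbour had no footprint, or 13.9%, and 0 of 2333 without, which allows a share of up to 0.129% (3 counts of the total) or 0.164% by the Wilson limit. With each replicate alone, a stronger region was near 83.0% ± 2.29 (SD, n = 2) of the regions without a footprint and near 17.1% ± 0.305 of those with one, weighted to signal.

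**Figure D5:**
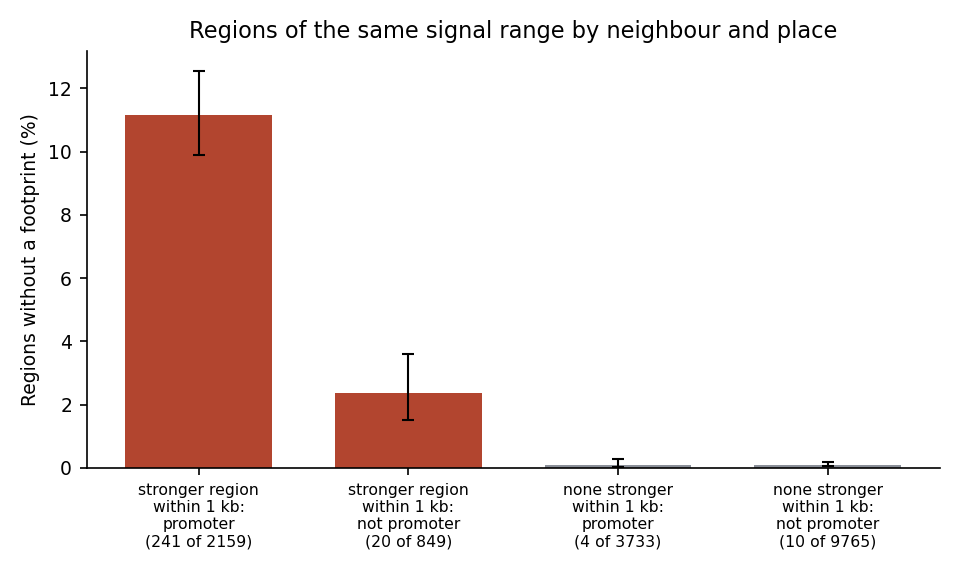
Share of regions without a footprint (y axis, %) within the members' signal range, split by a stronger shared region within 1 kb and by promoter; error bars are Wilson 95% intervals. The share is 11.2% for promoter regions with a stronger neighbour and 0.107% for those without.

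The 14 members with no stronger neighbour had another makeup. Only 4 were promoters, at Arfgap3, Akt2, Ugt1a7c and Lcorl, and 10 of the 14 had no shared region within 1 kb at all. The strongest of them, an intronic region of Plcd1 at chr9:119091701-119091940, had signals of 2.36 and 1.58. Plcd1 encodes a phospholipase C. At Akt2, a kinase of insulin signalling, the region chr7:27605641-27605840 was centred 56 bp upstream of a TSS, with signals of 1.55 and 1.27, and the nearest footprint was 1844 bp away. The Ugt1a7c member, at 1.33 and 1.30, was the only strong region within 1 kb of that gene's TSS. Ugt1a7c encodes a UDP-glucuronosyltransferase. These genes were named after their values were seen.

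In sequence, members were rich in G and C. The median GC content of the 200 bp windows was 65.0%, with single members from 48.5% to 84.0%. It was 56.5% in footprint-bearing regions weighted to signals and 59.5% in those weighted to signals and width. The median observed to expected CpG ratio was 0.781, against 0.350 and 0.482. Windows with over 50% GC and a CpG ratio over 0.6, called CpG island-like here, made up 198 of 275, 72.0% (66.4 to 77.0), against 25.4% and 40.0%. Among promoter regions alone, the median GC content was 66.0% in members and 62.5% in footprint-bearing regions of the same signal range. In each replicate alone the CpG island-like share was 57.4% ± 1.37 (SD, n = 2) without a footprint and 18.7% ± 1.95 with one, weighted to signal. DNase I cutting depends on sequence, and the part of base composition in the footprint calls was not tested.

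Few windows were mostly repetitive or duplicated, in members and in strong regions overall. Soft-masked bases were in 92 member windows (33.5%), against 46.5% weighted to signals, 45.1% weighted to signals and width and 42.0% of all strong regions. No member window was over 50% soft-masked. A count of 0 allows 3 counts of the total, here 1.09%, and the Wilson limit is 1.38%. The shares were 1.12% and 0.643% after the weightings and 0.953% of all strong regions, so a difference was not detectable. Another copy at 95% identity or more over at least 90% of the window was found for 2 members, 0.727% (0.200 to 2.61), against 1.03% weighted to signals and 0.653% of all strong regions. These were the windows at 2610005L07Rik, at 1.36 and 1.82, and at Ppp2r5a, at 1.47 and 1.34, with 4 other copies each. Ppp2r5a encodes a regulatory subunit of protein phosphatase 2A. No window matched the mitochondrial genome. Small RNA genes were overlapped by 2 members, the histidine tRNA gene printed above, at 1.81 and 1.78, and the microRNA gene Mir7654 at Arglu1, at 1.94 and 1.60. Each kind made up 0.364% of members, and tRNA genes were in 0.522% and microRNA genes in 0.144% of all strong regions.

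Motifs were searched as exact letters on both strands of the windows, and a match is not evidence of binding. The CTCF core motif, bound by the insulator protein CTCF, was in 1 member, 0.364% (0.0642 to 2.03). It was in 8.04% of footprint-bearing regions weighted to signals, 3.00% of those weighted to signals and width and 10.8% of all strong regions. In promoter regions alone it was in 0.408% of members and 4.36% of footprint-bearing regions. The NFY box, CCAAT, was in 34 members, 12.4% (8.98 to 16.8), against 19.5% and 17.8% after the weightings and 24.8% of all strong regions. With each replicate alone, the NFY box was in 14.5% ± 0.0131 (SD, n = 2) of regions without a footprint and 20.4% ± 0.258 of those with one, and the CTCF motif in 0.756% ± 0.521 and 10.6% ± 0.293. Both sets without a footprint come from the same shared regions and contain the 275 members, so these SDs are not a spread of independent samples. These sets were chosen by the absence of footprints, so the motif shares are a description only.

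The GC box of SP/KLF factors, GGGCGG, was in 110 members, 40.0% (34.4 to 45.9). That was above the 26.6% after weighting to signals, but close to the 36.8% after weighting to signals and width and the 38.2% of all strong regions. In promoter regions alone, 42.0% of members and 47.1% of footprint-bearing ones held it. The AP-1 motif TGACTCA was in 13 members, 4.73% (2.78 to 7.92), against 8.96% weighted to signals, 8.83% weighted to signals and width and 7.48% of all strong regions. Only 8 of these 13 were promoters, and 5 were among the 30 members elsewhere. The ETS motif CCGGAAG was in 20 members, 7.27% (4.76 to 11.0), against 3.53% weighted to signals, 4.44% weighted to signals and width and 8.02% of all strong regions. In promoter regions alone the ETS motif was closer, in 7.76% of members and 6.14% of footprint-bearing ones of the same signal range. The cyclic AMP response element, TGACGTCA, was in none, which by the limit of 3 counts allows up to 1.09%, and the NRF1 motif GCATGCGC in 1. Their weighted shares were 0.564% and 1.16%, so a difference was not detectable with 275 regions. The TATA box letters TATAAA were in 2 members, 0.727% (0.200 to 2.61), against 3.70% weighted to signals and 3.58% of all strong regions. Weighted to signals and width it was 2.60%, within the members' interval. Of 24 motifs searched, none was in 60 members, 21.8% (17.3 to 27.1), against 18.1% of weighted regions.

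The highest ranking members were at genes of varied function. The region of Actr2, a subunit of the actin-nucleating Arp2/3 complex, lay at chr11:20112341-20112560, 416 bp downstream of a TSS. Its signals were 2.93 and 2.81, next to a region at 10.5 and 10.5. At Pdp1, a pyruvate dehydrogenase phosphatase, the region had 2.95 and 2.59, and its neighbour 12.9 and 9.48. The member of Rbm39, a splicing factor, had 2.68 and 2.58, and its neighbour 17.2 and 15.1. Each of these neighbours was over 3 times as strong as the member in both replicates. Mob4, an adaptor of a kinase and phosphatase complex, had 3.02 and 2.25. The member of Ywhaz, a 14-3-3 adaptor protein, had 2.81 and 2.49, and that of Zfp524, a zinc finger protein, 2.64 and 2.58. Azi2, an adaptor of the kinase TBK1, had 2.83 and 2.22. Hspa8, the constitutive HSC70 chaperone, had 2.56 and 2.57 in a region 903 bp upstream of a TSS. The Zfyve21 member printed above ranked with them. Each of these had a footprint-bearing region within 1 kb.

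Outside promoters, 30 members remained, and among the strongest were those nearest to Btg2, Ell and Mnt. Btg2 is an antiproliferative gene induced by p53, and its region at chr1:134061201-134061540 had 2.47 and 2.21, 17749 bp downstream of the TSS. Ell encodes a transcription elongation factor, and its region, 1196 bp upstream of a TSS, had 2.39 and 1.93. Mnt encodes a repressor of the MYC network, and its intronic region, 2071 bp past a TSS, had 2.32 and 1.84. A region 2562 bp upstream of Egr3, an immediate-early transcription factor gene, had 1.86 and 1.76. The others by rank were near Gm24409, Plcd1, Zswim6, C430042M11Rik and AC138228.1, with signals from 1.57 to 2.36 in replicate 1 and from 1.49 to 2.00 in replicate 2. Several of these stood just past the 1 kb limit of a promoter, and with a limit of 2.5 kb the promoter share was 94.2%, against 48.0% weighted to signals, 62.8% weighted to signals and width and 60.7% of all strong regions.

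By gene, 272 of 12011 protein-coding genes with a strong region within 1 kb of a TSS had a member there, or 2.26%. In 271 of the 272 a footprint-bearing strong region was there too, Ugt1a7c being the exception. Of 22 immediate-early genes, all with a strong promoter region, 3 had a member: Jun, Junb and Jund, which encode the Jun subunits of AP-1. Jun had 1.34 and 1.51 at chr4:95051181-95051880, Junb 1.75 and 1.59 at chr8:84977401-84978080, and Jund 1.52 and 1.47 at chr8:70699181-70699600. The strongest other promoter regions of these genes had 15.0 and 11.3, 9.19 and 8.93, and 15.2 and 12.5. The TSS nearest to the Jun member was of another gene, Junos, and that nearest to the Jund member of Gm11175. All 3 members were over 400 bp wide, and none exceeded a signal of 2 in either replicate. No other gene of that list had one within 1 kb of a TSS. The members nearest to Egr3 and Btg2, which are also on the list, lay farther away.

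Lists of bladder cell types held few members. None of the 22 urothelial, 13 smooth muscle, 6 endothelial, 5 immune and 4 nerve and glia genes with a strong promoter region had a member. Among 19 fibroblast and stroma genes 1 did, Fn1, which encodes the matrix protein fibronectin. Its member had 1.43 and 1.14, beside a region at 6.45 and 5.18, and its nearest TSS was of another gene, Apol7d. At the 2.26% of all genes, lists of this size would hold few, so a difference was not detectable. None of 73 ribosomal protein genes, 49 replication-dependent histone genes and 21 homeobox cluster genes had a member. Nor had any of 3 hepatocyte and 3 germ cell genes, cell types foreign to this tissue. Ywhaz was the only one of 20 housekeeping genes. Of 289 Zfp-numbered zinc finger genes 5 had one, 1.73%, near the share of all genes: Zfp341, Zfp367, Zfp524, Zfp689 and Zfp787. Of them Zfp367 differed most between replicates, at 1.95 and 1.10. The members of Zfp341 and Zfp689 lay nearest to a TSS of another gene, 4930519P11Rik and B130055M24Rik. Vmn1r4, 1 of 2 olfactory and vomeronasal receptor genes with a strong promoter region, had 1.60 and 1.43. That region lay nearer to a TSS of another gene, Nt5c3, 153 bp away, so it need not belong to Vmn1r4. Acap2, Ddit3 and Ppp2r5a each had 2 members.

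Between replicates the members were lower in replicate 1 once each signal was divided by its library's median. The log2 ratio of replicate 1 to replicate 2 had a median of -0.23 (quartiles -0.41 and -0.07), and 224 of 275 were below 0. Footprint-bearing regions weighted to the same signals had -0.21. On the deposited scale the median was 0.16 in members and 0.18 in weighted regions. The ratio is made of the signals that the rule used and the weights match, so this closeness follows from the weighting. The FDR track reached 1e-10 or lower in 201 members (73.1%, 67.6 to 78.0) in replicate 1 and in 106 (38.5%, 33.0 to 44.4) in replicate 2. Footprint-bearing regions gave 68.6% and 29.3% when weighted to the members' signals, and 69.4% and 31.2% when weighted to signals and width. Within the members' signal range without weights they gave 83.6% and 35.6%, and all strong regions gave 91.4% and 63.3%. Members were thus below all strong regions and above both weighted sets in each replicate. In replicate 1 both weighted values lay within the members' interval. Against the unweighted set, members were below in replicate 1 and above in replicate 2. In replicate 2 the lowest FDR within a member was, for the least significant member, 1.78 on the -log10 scale.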

How the data were processed

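DNase-seq libraries of 2 biological replicates were analysed from peak, footprint and FDR tables, each made by the authors from 1 library without pooling on mm10, per the notes deposited with the samples. No aligner, caller or version is named in the labels or notes. The deposited peak signal is the authors' density per peak, and how it was normalized is not stated. Signals came in whole steps (tolerance 0.01 steps) of 0.00521 in replicate 1 and 0.00799 in replicate 2. The median member held 290 and 175 steps, and whether a step is a read is not stated. The deposited FDR values are p-values or q-values of the authors, listed at 0.05 or lower. The value of each footprint was 0.01 throughout, so footprints served as positions only. The read depth is unknown.

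For each replicate the peak list with more rows was used, and overlaps were of at least 1 bp. Annotation was GENCODE M21 and sequence RefSeq GRCm38.p6, whose letters are of the reference and not of the hybrid's alleles. Coordinates are 1-based. Other copies of the windows were searched with blastn 2.17.0. Weights used 5 quantile bins per measure within the members' range, and the code was tested on simulated data. The named regions are the 10 highest by mean rank of signal, the 10 highest outside promoters, the 5 widest, 3 on each side of the threshold, those with copies or small RNA genes, and members at listed genes. Members, lists and rules were chosen with earlier results of these data known. The weights, the neighbour comparison and the strata were added after seeing the data. Printed windows exclude chromosome 18 and windows on annotated UTRs. Some regions that this rule names are not reported here.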

Additional observations from a re-analysis of the deposited data

How the results depend on the processing

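The number of regions without a footprint depended on the rule: 275 of the strong regions (0.859%), 32 (0.152%) with the stricter peak list and 7 (0.0435%) above the 75th percentile of signal. It was from 516 to 1601 (1.44% to 4.46%) when the signal and footprints of 1 replicate were left out, among the same shared regions. All 32 and all 7 were among or overlapped the 275, and 267 had no footprint within 50 bp either. The promoter share was 84.4% with the stricter list, 100% above the 75th percentile and from 75.6% to 78.3% without a replicate. It was 68.4% with a promoter limit of 500 bp and 94.2% with 2500 bp. Median GC content was 62.8% with the stricter list and from 63.0% to 63.5% without a replicate. The multi-copy share was 0 with the stricter list and above the 75th percentile. In windows of 100 bp the NFY box was in 8.73% and the GC box in 25.1%, since shorter windows hold fewer letters. Outside promoters the CTCF motif was in 0, the GC box in 23.3% and the AP-1 motif in 16.7% of members. The median log2 ratio between replicates was -0.23 and turned to 0.16 without division by the median. No paired analysis was possible because there is only 1 group. The footprint caller and its settings could not be varied, and the footprint count of a library moves with its depth, which is unknown.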

Other observations

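On the X chromosome, which was outside the rule, 3 of 527 strong shared regions had no footprint by the same thresholds, and on the Y chromosome 0 of 5. Among autosomes the share ran from 0.485% on chromosome 3 (7 of 1444) to 1.36% on chromosome 19 (15 of 1103). Regions with footprints in 1 replicate only, 662 in replicate 1 and 194 in replicate 2, had promoter shares of 67.8% and 62.9%, between those of regions with footprints in both (51.4%) and in neither (89.1%). The CTCF motif was in 1.66% and 0.515% of them, against 11.2% and 0.364%. These groups were not matched: their median replicate 1 signals were 1.78 and 1.61, against 3.01 with footprints in both and 1.51 in neither. Their median widths were 260 bp each, against 220 and 320 bp. In the 154 promoter members over 100 bp downstream, the excess of G over C on the transcribed gene's sense strand had a median skew of 0.0643, against 0.0364 in downstream regions with a footprint in the same signal range.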
